A study of Mus musculus with 8 samples.

Results

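Cells of the mouse hepatoma line Hepa1-6 that had received TNF-α alone were compared with untreated cells of the same line. The comparison rests on 4 of the 8 libraries of the series: 2 untreated controls and 2 with TNF-α at 50 ng/ml for 24 h. The other 4 libraries had trimethylamine N-oxide (TMAO) at 50 µM for 24 h, or TMAO and TNF-α together at those doses. They entered the same fit and helped to set the spread, and the groups with TMAO gave a second TNF-α comparison that shares no library with the first. The line is given as a hepatoma of C57BL/6 origin, grown in DMEM with 10% fetal bovine serum. Nothing else separates the groups in the labels, which give no time for the controls. Each group holds a library numbered 14 and one numbered 16. The labels do not say that these came from separate cultures, so p-values measure only the spread between libraries, which may be technical. Each pair of values below gives library 14 first and library 16 second.

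TNF-α is a cytokine made chiefly by macrophages that acts on liver cells in inflammation and regeneration. It binds TNFR1 (Tnfrsf1a) and TNFR2 (Tnfrsf1b), which gather TRADD, TRAF proteins and the cIAP ubiquitin ligases and activate the IKK kinases. IKK marks the IκB proteins for destruction and frees NF-κB dimers to enter the nucleus, where they activate genes for chemokines, cytokines, adhesion molecules and the pathway's own inhibitors IκBα (Nfkbia) and A20 (Tnfaip3). In hepatocytes TNF-α is also known to start acute phase synthesis together with IL-6 and to lower parts of the liver's specialised expression.

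With TNF-α, 6 of 11 NF-κB subunits and IκB proteins rose, Nfkbia, Nfkbie, Relb and Nfkb2 among them, as did 5 of 8 tested CC chemokines and 6 of 10 tested CXC and CX3C chemokines. Vcam1, Icam1, Madcam1 and the metalloproteinases Mmp13 and Mmp9 rose too. Those that fell included albumin, alpha-fetoprotein, the fibrinogen chain Fgb, Cyp1a1, the chemokine Cxcl15, and the Wnt and YAP target genes Notum, Rnf43 and Ccn2. Of 15613 genes tested, 633 (4.05%) passed an adjusted p of 0.05 by edgeR's quasi-likelihood test, 372 higher (2.38%) and 261 lower (1.67%). Among the 633, the median absolute log2 fold change was 1.17 and the smallest 0.45, and 395 differed by at least 2-fold. In all 633 both TNF-α libraries lay beyond both controls, as they did in 5481 (35.1%) of all tested genes. Where a called gene is said below to show no overlap, that repeats this result and adds no support to the call.

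The TNF-α libraries differed from each other more than the libraries of any other group. Over the 12368 genes of at least 1 CPM (counts per 1e6 counts), the SD of the log2 difference between libraries 16 and 14 was 0.69 with TNF-α, against 0.25 in the controls, 0.18 with TMAO and 0.21 with both agents. The fit sets 1 spread per gene over all 4 groups. Its SE and p-values can therefore understate the spread between the TNF-α libraries. A gap over 1.5-fold separated the TNF-α libraries in 4051 genes (32.75%), 1790 higher in library 16 and 2261 lower, whereas the shares in the other groups were 1.8% to 3.45%. Library 16 also had the fewest counts (24736746, against 29795944 in library 14 and up to 30488605 elsewhere) and the fewest genes with a count (20815, against 22917). With TNF-α library 16 left out, library 14 alone against the controls gave 2113 calls of 16377 genes (12.9%; 6.95% higher, 5.95% lower). With library 14 left out, library 16 alone gave 7971 of 16317 (48.9%; 23.7% higher, 25.1% lower). These fits take the spread from the other groups and assume that a lone TNF-α library varies as they do. Each drops the widest gap within a group, so passing them adds little to a call made with all 8 libraries. Without control 14 the 633 calls became 92 and without control 16 98. Without a TMAO library they became 270, and without a combined library 256 or 258. Of the 633, 82 passed in all 8 of these fits, 44 higher and 38 lower. With only the 4 libraries compared, 1 gene passed, Pglyrp2 (adjusted p = 0.0488), and 1253 had an unadjusted p under 0.05.

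**Figure D1:**
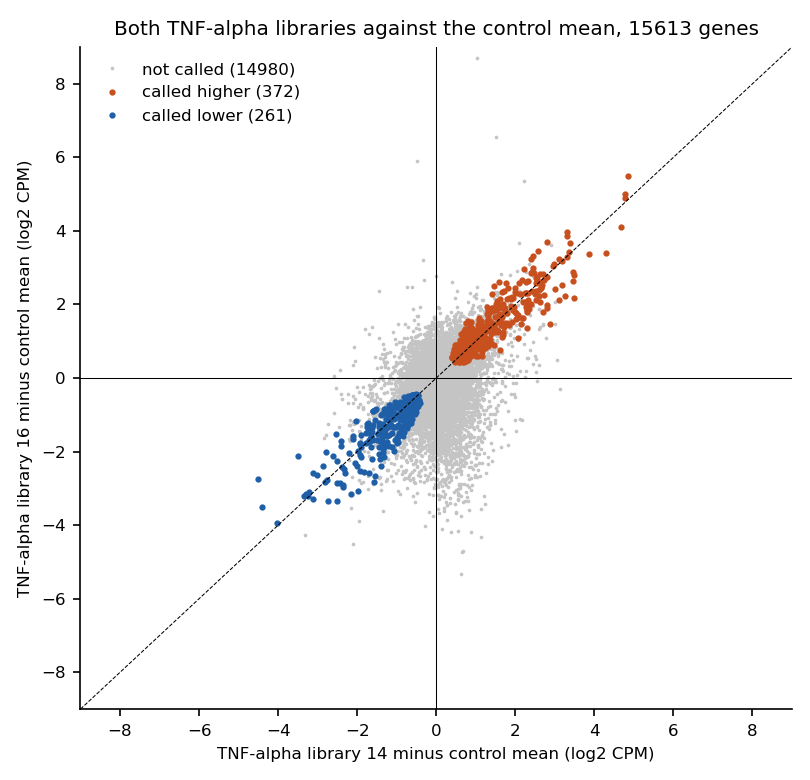
Each point is 1 of 15613 tested genes, with its log2 CPM in TNF-α library 14 minus the control mean on the x axis and in library 16 on the y axis; both axes share the control mean, and the dashed line marks equal values. The 372 genes called higher and 261 called lower lie near the line, while the uncalled genes spread further along the axis of library 16.

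The largest rise among called genes of at least 10 CPM was that of Sprr2e, a small proline-rich protein of the epithelial cornified envelope. It lay at 1.59 and 0.655 CPM in the control libraries and 31.4 and 49.3 CPM in the TNF-α libraries (log2 fold change 5.16 ± 0.41 SE, adjusted p = 0.0017). Sprr2e has near-identical neighbours in its family, so its reads may be shared among them. Pglyrp2, the liver amidase that cleaves bacterial peptidoglycan, went from 2.06 and 1.69 CPM to 52.6 and 57.9 CPM (log2 fold change 4.88 ± 0.16 SE, adjusted p = 0.000166), with each pair nearly level. Cd83, a surface protein best known from mature dendritic cells, stood at 4.26 and 4.17 CPM in the controls and 42.3 and 62.4 CPM with TNF-α (log2 fold change 3.63 ± 0.21 SE, adjusted p = 0.000648). Ubd, the ubiquitin-like modifier FAT10, measured 1.15 and 1.69 CPM without and 7.71 and 13.7 CPM with TNF-α (log2 fold change 2.91 ± 0.39 SE, adjusted p = 0.0102). Tnfaip2, named for its response to TNF-α, measured 3.31 and 3.14 CPM without and 19 and 19.8 CPM with TNF-α (log2 fold change 2.58 ± 0.12 SE, adjusted p = 0.000362). Pdgfrl had 2.5 and 2.65 CPM without and 15.4 and 17.7 CPM with TNF-α, a log2 fold change of 2.68. The endocytic receptor Lrp2 had 2.26 and 2.27 CPM without and 14.9 and 13.6 CPM with TNF-α, a log2 fold change of 2.65. Gdnf, a neurotrophic factor, had the widest gap between the TNF-α libraries of these genes (1.08 and 1.66 CPM in the control libraries and 15.6 and 6.24 CPM in the TNF-α libraries). Its fit gave a log2 fold change of 3.003 ± 0.46 SE, adjusted p = 0.016. The rule that chose these genes required both TNF-α libraries to exceed both controls. Of the 12 largest rises, which also include Tnip3, Traf1, Madcam1 and Ccl2, 11 were called without any 1 of the TMAO and combined libraries. Without control 14 or control 16, 10 were called.

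Among receptors, adaptors and IKK kinases, 3 of 18 tested genes were called higher and none lower. Traf1, an adaptor that binds TNFR2 and the cIAPs, lay at 19.5 and 19.4 CPM in the control libraries and 107 and 156 CPM in the TNF-α libraries (log2 fold change 2.76 ± 0.18 SE, adjusted p = 0.000904). Birc3, the ubiquitin ligase cIAP2, rose from 34.7 and 39.1 CPM to 76.7 and 67.2 CPM (log2 fold change 0.96 ± 0.11 SE, adjusted p = 0.00588). Tnfrsf1b, TNFR2 itself, rose from 10.1 and 10.7 CPM to 17.2 and 14.8 CPM (log2 fold change 0.62 ± 0.12 SE, adjusted p = 0.0393). The TNF-α libraries were both above the controls in these 3 genes, library 16 the higher for Traf1 and library 14 for Birc3 and Tnfrsf1b. TNFR1, the receptor that liver cells mainly use, was not called: Tnfrsf1a had 156 and 140.2 CPM in the control libraries and 116 and 142 CPM in the TNF-α libraries, so the groups overlapped (log2 fold change -0.20 ± 0.12 SE, adjusted p = 0.529). The kinase Map3k7 (TAK1) and its partner Tab2 were also uncalled, at log2 fold changes of -0.12 and -0.14. The median log2 difference of the 18 genes from the control mean was 0.06 in library 14 and -0.10 in library 16, where the median of all tested genes was -0.002 and 0.012.

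Of 11 NF-κB subunits and IκB proteins, 6 were called higher and none lower, with medians of 0.68 in library 14 and 0.96 in library 16. Nfkbia, the inhibitor IκBα, had 71.8 and 60.6 CPM in the control libraries and 192 and 244 CPM in the TNF-α libraries (log2 fold change 1.72 ± 0.15 SE, adjusted p = 0.00228). Nfkbie, the inhibitor IκBε, rose from 34.3 and 34.5 CPM to 76.2 and 85.1 CPM (log2 fold change 1.23 ± 0.11 SE, adjusted p = 0.00242). Relb, the partner of p52 in the non-canonical pathway, rose from 43.5 and 40 CPM to 101 and 138 CPM (log2 fold change 1.52 ± 0.16 SE, adjusted p = 0.00401). The groups did not overlap in any of them, and library 16 was the higher of the TNF-α pair each time. Nfkb2, the p52 precursor, had 315 and 298 CPM without and 452 and 484 CPM with TNF-α, a log2 fold change of 0.61. The nuclear IκB proteins Bcl3 and Nfkbid rose by 0.85 and 1.16 on the log2 scale. Bcl3 had 40.4 and 35.5 CPM without and 60.5 and 76.4 CPM with TNF-α, and Nfkbid had 2.26 and 2.14 CPM without and 5.49 and 4.34 CPM with TNF-α. The canonical subunits were not called: Nfkb1 had a log2 fold change of 0.26 (adjusted p = 0.426) and Rela of 0.43 (adjusted p = 0.0797). All 11 genes lay above the control mean in library 14 and 10 in library 16, against 7763 and 7922 of all 15613 tested genes.

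Feedback inhibitors of the pathway gave 3 rises and 1 fall among 13 tested genes. Tnfaip3, the ubiquitin-editing enzyme A20, lay at 69 and 71.2 CPM in the control libraries and 239.5 and 194 CPM in the TNF-α libraries (log2 fold change 1.63 ± 0.12 SE, adjusted p = 0.00142), higher in library 14 than in library 16. Its binding partner Tnip1 rose from 152 and 137 CPM to 288 and 340.2 CPM (log2 fold change 1.12 ± 0.12 SE, adjusted p = 0.00475). Tnip3, of the same family, went from 0.845 and 1.69 CPM to 12.9 and 13.6 CPM (log2 fold change 3.38 ± 0.30 SE, adjusted p = 0.00237), and its control counts were 25 and 49. Optn, a ubiquitin-binding autophagy receptor, fell from 79.1 and 79.2 CPM to 57.6 and 56.1 CPM (log2 fold change -0.48 ± 0.09 SE, adjusted p = 0.0393). The deubiquitinase Cyld and the ligase Itch were not called, and library 16 lay below the controls while library 14 lay within or above them (76.8 and 85.2 CPM in the control libraries and 96.9 and 71.8 CPM in the TNF-α libraries for Cyld). Of the 13 genes called in the receptor, NF-κB and feedback lists, 4 were called without control 14 and 5 without control 16. Leaving out any 1 TMAO or combined library kept 8.

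**Figure D2:**
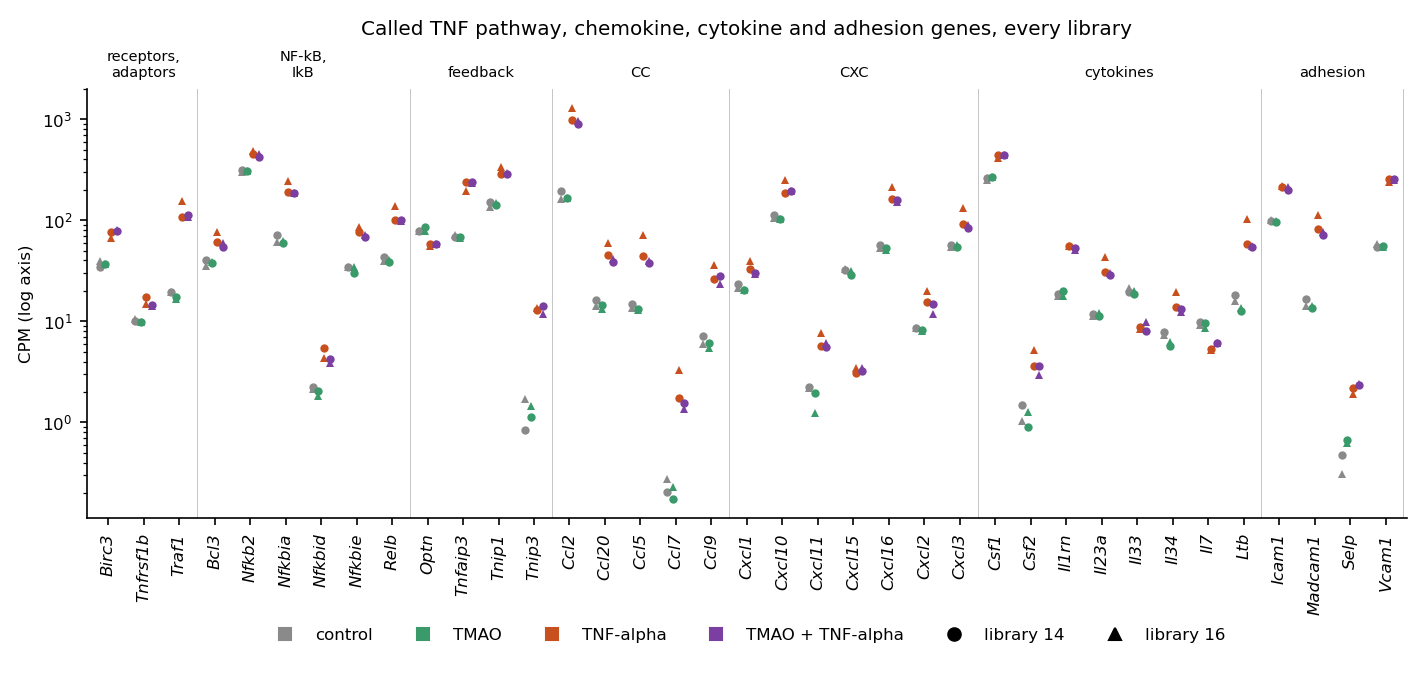
CPM on a log axis in all 8 libraries for the 37 called genes of the receptor, NF-κB, feedback, chemokine, cytokine and adhesion lists, with circles for library 14, triangles for library 16 and colours for the 4 groups. Both TNF-α libraries stand above both controls in 33 genes and below them in 4 (Optn, Cxcl15, Il33 and Il7).

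The promoters of 4 called genes show the letters that NF-κB dimers are known to bind. The pattern GGGNNTTTCC was searched on both strands in RefSeq promoter windows of GRCm38.p6, from 250 bases before to 50 after each annotated start, and 10628 of the 15613 tested genes had a window. It occurred in 535 of 32851 windows (1.63%) and in 224 of the 10628 genes (2.11%). Among genes with a window that were called higher with TNF-α it occurred in 23 of 265 (8.68%), and among those called lower in 4 of 193 (2.07%). In the receptor, NF-κB, feedback, chemokine, cytokine and adhesion lists, 24 of the 33 genes called higher had a window, and 12 of the 24 held it. The 4 with the smallest p among named genes are shown 5′ to 3′ on the strand of the gene, with the matches in capitals. Madcam1 has matches at -83 and -70 from the start, Nfkbia at -29, Tnfaip3 at -12 and Il1rn at -51. Counted from another annotated start of Il1rn, the same match lies at 29, after that start. The stretches are chr10:79664409-79664558 (plus strand), chr12:55492648-55492797 (minus), chr10:19015403-19015432 (minus) and chr2:24345310-24345339 (plus). The last 2 were cut to 30 bases because an annotated exon overlaps the longer stretch, and the 30 bases shown still overlap annotated exons. A match is a stretch of letters and not a measured binding site.
Madcam1: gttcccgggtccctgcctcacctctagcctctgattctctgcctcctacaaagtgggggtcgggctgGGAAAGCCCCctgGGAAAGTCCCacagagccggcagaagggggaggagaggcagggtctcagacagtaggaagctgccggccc
Nfkbia: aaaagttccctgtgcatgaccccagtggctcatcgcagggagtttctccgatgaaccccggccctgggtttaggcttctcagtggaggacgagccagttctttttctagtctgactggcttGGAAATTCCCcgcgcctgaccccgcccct
Tnfaip3: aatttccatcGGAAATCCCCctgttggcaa
Il1rn: ggaaatatgaGGGTTTTTCCgcttctgaca

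CC chemokines, which draw monocytes, T cells and dendritic cells, had the highest median of the lists examined, 1.61 in library 14 and 2.16 in library 16, over 8 tested of 16 listed. Of the 8 tested, 5 rose and none fell. The filter on low counts also keeps a gene that reaches its minimum count of 10 only in libraries with TNF-α. The median and this share can be raised by that, and Ccl7 (below) was under that count in both controls. Ccl2, the main monocyte attractant, had 195 and 164 CPM in the control libraries and 990.5 and 1284 CPM in the TNF-α libraries (log2 fold change 2.66 ± 0.17 SE, adjusted p = 0.000817). Ccl20, which attracts CCR6-bearing cells, had 16.1 and 14.3 CPM in the control libraries and 44.9 and 59.9 CPM in the TNF-α libraries (log2 fold change 1.78 ± 0.16 SE, adjusted p = 0.00256). Ccl5, a T cell attractant, rose from 14.7 and 13.4 CPM to 44.7 and 71.5 CPM (log2 fold change 2.05 ± 0.22 SE, adjusted p = 0.0043). TNF-α library 16 was the higher of the pair for each, and its lead was largest for Ccl5. Ccl9 rose from 7.13 and 6.03 CPM to 26.4 and 36.4 CPM, a log2 fold change of 2.25. Ccl7 rose from 6 and 8 counts to 53 and 80 (log2 fold change 3.37 ± 0.44 SE, adjusted p = 0.00875). Ccl25, Ccl27a and Ccl17 were not called. The other 8, Ccl3, Ccl4 and Ccl11 among them, were below the filter on low counts, with at most 19 counts in a control or TNF-α library.

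In the CXC and CX3C list 6 of 10 tested genes rose and 1 fell. Cxcl16, a membrane-bound ligand of CXCR6, lay at 57 and 52.6 CPM in the control libraries and 162 and 215 CPM in the TNF-α libraries (log2 fold change 1.78 ± 0.15 SE, adjusted p = 0.00195). Cxcl10, a CXCR3 ligand also induced by interferon, rose from 113 and 106 CPM to 187 and 250.5 CPM (log2 fold change 0.997 ± 0.15 SE, adjusted p = 0.0144). Cxcl11 rose from 2.23 and 2.21 CPM to 5.66 and 7.73 CPM (log2 fold change 1.59). The neutrophil attractants Cxcl1, Cxcl2 and Cxcl3 rose by less, with log2 fold changes of 0.68, 1.04 and 1.01 and adjusted p of 0.029, 0.0191 and 0.0233. Cxcl15, a neutrophil attractant known from the lung, went the other way and was the largest fall among called genes of at least 10 CPM. It had 32.4 and 32.6 CPM in the control libraries and 3.11 and 3.47 CPM in the TNF-α libraries (log2 fold change -3.31 ± 0.13 SE, adjusted p = 0.000219), with both pairs close together and no overlap. Of the 12 chemokine calls, 5 were made without control 14 or without control 16, and 8 without any 1 of the TMAO and combined libraries.

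Among the other cytokines 6 of 18 tested genes rose and 2 fell. Il1rn, the antagonist of the IL-1 receptor, had 18.6 and 17.9 CPM in the control libraries and 55.9 and 55.3 CPM in the TNF-α libraries (log2 fold change 1.61 ± 0.10 SE, adjusted p = 0.000796). Each pair was nearly level. Ltb, lymphotoxin beta, had 18.3 and 15.9 CPM in the control libraries and 58.3 and 103 CPM in the TNF-α libraries (log2 fold change 2.24 ± 0.26 SE, adjusted p = 0.00588), with library 16 well above library 14. Il23a, a subunit of IL-23, rose from 11.8 and 11.4 CPM to 31.1 and 43.7 CPM (log2 fold change 1.69 ± 0.17 SE, adjusted p = 0.00385). The growth factors of myeloid cells Csf1, Csf2 and Il34 rose as well. Csf1 had 262 and 253 CPM without and 446 and 414 CPM with TNF-α. Il34 had 7.87 and 7.27 CPM without and 13.8 and 19.4 CPM with TNF-α. Csf2 had 44 and 30 counts without and 110 and 127 with TNF-α. Il33, an alarmin of the IL-1 family, fell from 19.5 and 21.6 CPM to 8.83 and 8.31 CPM (log2 fold change -1.26 ± 0.14 SE, adjusted p = 0.00525). Il7, a lymphocyte growth factor, fell from 9.8 and 9.27 CPM to 5.33 and 5.25 CPM (log2 fold change -0.85 ± 0.13 SE, adjusted p = 0.0158). Tgfb1 was just outside the threshold (log2 fold change 0.74, adjusted p = 0.0511). Il6 had 1 to 5 counts in the control and TNF-α libraries, and Tnf and Il1b had 0 in all 4. A count of 0 allows up to 0.101, 0.103, 0.101 and 0.121 CPM (3 counts) in control 14, control 16, TNF-α 14 and TNF-α 16, counting error only.

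Leukocyte adhesion molecules gave 4 rises and no fall among 10 tested genes. Vcam1, the ligand of the integrin VLA-4, lay at 54.7 and 58.7 CPM in the control libraries and 258 and 236 CPM in the TNF-α libraries (log2 fold change 2.12 ± 0.10 SE, adjusted p = 0.000385). Icam1, the ligand of LFA-1, rose from 98.2 and 101 CPM to 214 and 217 CPM (log2 fold change 1.11 ± 0.10 SE, adjusted p = 0.00196). Madcam1, known from gut endothelium, rose from 16.6 and 14.1 CPM to 82.6 and 114 CPM (log2 fold change 2.68 ± 0.18 SE, adjusted p = 0.000904). In Vcam1 and Icam1 the TNF-α libraries were nearly level, while in Madcam1 library 16 was the higher. Selp (P-selectin) rose from 14 and 9 counts to 66 and 46 (log2 fold change 2.37 ± 0.29 SE, adjusted p = 0.00685). The integrin subunit Itgav lay at 390.4 and 479 CPM in the control libraries and 856 and 455 CPM in the TNF-α libraries, so library 14 was above the controls and library 16 between them, and it was not called (adjusted p = 0.385). Of the 12 cytokine and adhesion calls, 3 were made without control 14 and 4 without control 16. Leaving out any 1 TMAO or combined library kept 8.

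Interferon-stimulated genes were called in 3 of 30 cases, all higher. The guanylate-binding proteins Gbp3 and Gbp2, GTPases of cell-autonomous defence, had 58 and 58.9 CPM without and 126 and 144 CPM with TNF-α and 13 and 11.9 CPM without and 27.6 and 33 CPM with TNF-α, with log2 fold changes of 1.21 and 1.28. Their sequences are alike, so reads may be shared between family members. Irf1, a transcription factor under both interferon and NF-κB control, rose from 80.9 and 77.6 CPM to 116 and 141 CPM (log2 fold change 0.69 ± 0.12 SE, adjusted p = 0.0215). Over all 30 genes the median difference was 0.31 in library 14 and 0.23 in library 16. Both TNF-α libraries were above both controls in 18, of which 3 were called, and in 2748 of all 15613 tested genes. Of the 30, 29 lay above the control mean in library 14 and 22 in library 16, against 7763 and 7922 of all 15613 tested genes. Bst2 (tetherin) had 262 and 229 CPM in the control libraries and 266 and 479.8 CPM in the TNF-α libraries, most of the difference lying in library 16.

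Antigen presentation by MHC class I gave 3 rises in 15 tested genes. The median difference was 0.27 in library 14 and 0.85 in library 16. Such a gap was not particular to this list. The median of library 16 minus library 14 was 0.501 here, 0.511 for the hepatocyte secreted proteins and 0.565 for the shortest class of protein-coding genes (below). The peptide transporter subunit Tap2 rose from 12.2 and 9.45 CPM to 20.1 and 26.4 CPM (log2 fold change 1.10 ± 0.18 SE, adjusted p = 0.0197). The loading factor Tapbp (tapasin) rose from 143 and 128 CPM to 207 and 309.8 CPM (log2 fold change 0.93 ± 0.19 SE, adjusted p = 0.0434). The immunoproteasome subunit Psmb9 rose from 10.2 and 7.55 CPM to 15.1 and 21.3 CPM (log2 fold change 1.03 ± 0.21 SE, adjusted p = 0.048). B2m, the light chain, had 829 and 729 CPM in the control libraries and 939.7 and 1404 CPM in the TNF-α libraries. H2-D1, a heavy chain, had 901 and 787 CPM in the control libraries and 951 and 1383 CPM in the TNF-α libraries. Both exceeded the controls by far more in library 16 than in library 14, and neither was called (adjusted p = 0.206 and 0.308). H2-D1 and its relatives are a multigene family whose reads may be shared.

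Death receptor and apoptosis genes gave 3 rises in 20 tested. The death receptor Fas lay at 20.5 and 20.8 CPM in the control libraries and 45.3 and 60.8 CPM in the TNF-α libraries (log2 fold change 1.36 ± 0.16 SE, adjusted p = 0.00588). Bid, which carries the death receptor signal to mitochondria, rose by 0.52 on the log2 scale. Mcl1, a survival protein, was uncalled, at a log2 fold change of -0.05. Bcl2l1, encoding the survival protein Bcl-xL, had 169 and 154 CPM in the control libraries and 102 and 144 CPM in the TNF-α libraries, lower in both TNF-α libraries but not called (adjusted p = 0.326). In the IL-6 and JAK-STAT list Stat5a (14.2 and 14.7 CPM without and 22.9 and 22.4 CPM with TNF-α) and the feedback inhibitor Socs2 (7.4 and 7.76 CPM without and 11.7 and 12.9 CPM with TNF-α) rose, and the IL-6 receptor chain Il6ra fell from 45.4 and 47.7 CPM to 29.4 and 19.9 CPM (log2 fold change -0.92 ± 0.18 SE, adjusted p = 0.0431), among 15 tested genes. Its signalling partner Il6st had 138 and 159 CPM in the control libraries and 199.8 and 94.8 CPM in the TNF-α libraries, above both controls in library 14 and below both in library 16. Of the 12 calls in the interferon, MHC, death and JAK-STAT lists, 2 were made without control 14 and 1 without control 16. Leaving out any 1 TMAO or combined library kept 3. None of the 3 MHC class I calls or the 3 JAK-STAT calls was made without a control, TMAO or combined library or with the library number as a block in the 8-library fit, and no death receptor call was made without a control.

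Of 12 tested genes for secreted products of hepatocytes, 2 fell and none rose. Alb, serum albumin, lay at 1228 and 1166 CPM in the control libraries and 359.9 and 442 CPM in the TNF-α libraries (log2 fold change -1.58 ± 0.14 SE, adjusted p = 0.00232). Afp, the fetal albumin relative and hepatoma marker, lay at 1591 and 1510 CPM in the control libraries and 623 and 823 CPM in the TNF-α libraries (log2 fold change -1.10 ± 0.16 SE, adjusted p = 0.013). Both TNF-α libraries were below both controls in each, library 14 the lower. The median difference of the 12 was -0.56 in library 14 and -0.20 in library 16. Apoe lay at 1586 and 1326 CPM in the control libraries and 776 and 1354 CPM in the TNF-α libraries, lower in library 14 only. Rbp4, the retinol carrier, lay at 533 and 460.2 CPM in the control libraries and 297 and 518 CPM in the TNF-α libraries, again lower in library 14 only. Apob, of lipoprotein assembly, lay at 199 and 295 CPM in the control libraries and 229.9 and 66.5 CPM in the TNF-α libraries, lower in library 16 only. None of the 3 was called. The label of a hepatoma line was met by Alb and Afp, while Ttr and Apoa1 had at most 10 counts in a library. In bulk RNA, fewer cells expressing a gene and less RNA per cell cannot be told apart.

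Acute phase proteins were mostly below the filter: 7 of 20 listed were tested. Haptoglobin (Hp) rose from 12 and 10 counts to 34 and 36 (log2 fold change 1.78 ± 0.34 SE, adjusted p = 0.0355). The copper carrier Cp rose from 22.5 and 23.9 CPM to 37.9 and 32 CPM (log2 fold change 0.59 ± 0.12 SE, adjusted p = 0.044). Saa1 and Orm1 had no count in the control and TNF-α libraries, Saa2 had 1 count, and Saa3 at most 2. The lipopolysaccharide-binding protein Lbp had 28.5 and 26.9 CPM in the control libraries and 17.1 and 20.2 CPM in the TNF-α libraries, lower in both TNF-α libraries and just outside the threshold (adjusted p = 0.0564).

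Complement genes went both ways, with 2 rises and 4 falls in 15 tested. C3, the central component, lay at 426 and 449 CPM in the control libraries and 1078 and 794 CPM in the TNF-α libraries (log2 fold change 1.10 ± 0.16 SE, adjusted p = 0.0144). Hc, which encodes C5, rose from 3.99 and 4.41 CPM to 9.99 and 10.2 CPM (log2 fold change 1.26 ± 0.16 SE, adjusted p = 0.00868). The complement regulators Cfi and C4bp fell. Cfi went from 21.5 and 21.2 CPM to 9.43 and 8.72 CPM (log2 fold change -1.23 ± 0.12 SE, adjusted p = 0.00339). C4bp fell by 2.23 on the log2 scale. Masp1, a protease that starts the lectin pathway, fell from 23.2 and 25.1 CPM to 12.1 and 12 CPM, with the libraries of each group nearly level. The TNF-α libraries were beyond the controls in all 6.

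Among coagulation and fibrinolysis genes 2 rose and 2 fell of 12 tested. Fgb, the fibrinogen beta chain, lay at 81.7 and 77.8 CPM in the control libraries and 24.6 and 28.8 CPM in the TNF-α libraries (log2 fold change -1.58 ± 0.11 SE, adjusted p = 0.00101). Proc, protein C, fell from 4.97 and 4.65 CPM to 1.52 and 1.7 CPM (log2 fold change -1.58 ± 0.18 SE, adjusted p = 0.00476). F3, tissue factor, rose from 43.8 and 44.9 CPM to 66.5 and 63.1 CPM (log2 fold change 0.55 ± 0.10 SE, adjusted p = 0.0338). Of the 14 calls in the secreted, acute phase, complement and coagulation lists, 4 were made without control 14 or without control 16. Leaving out any 1 TMAO or combined library kept 8. Neither acute phase call was made without a control, TMAO or combined library or with the block.

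**Figure D3:**
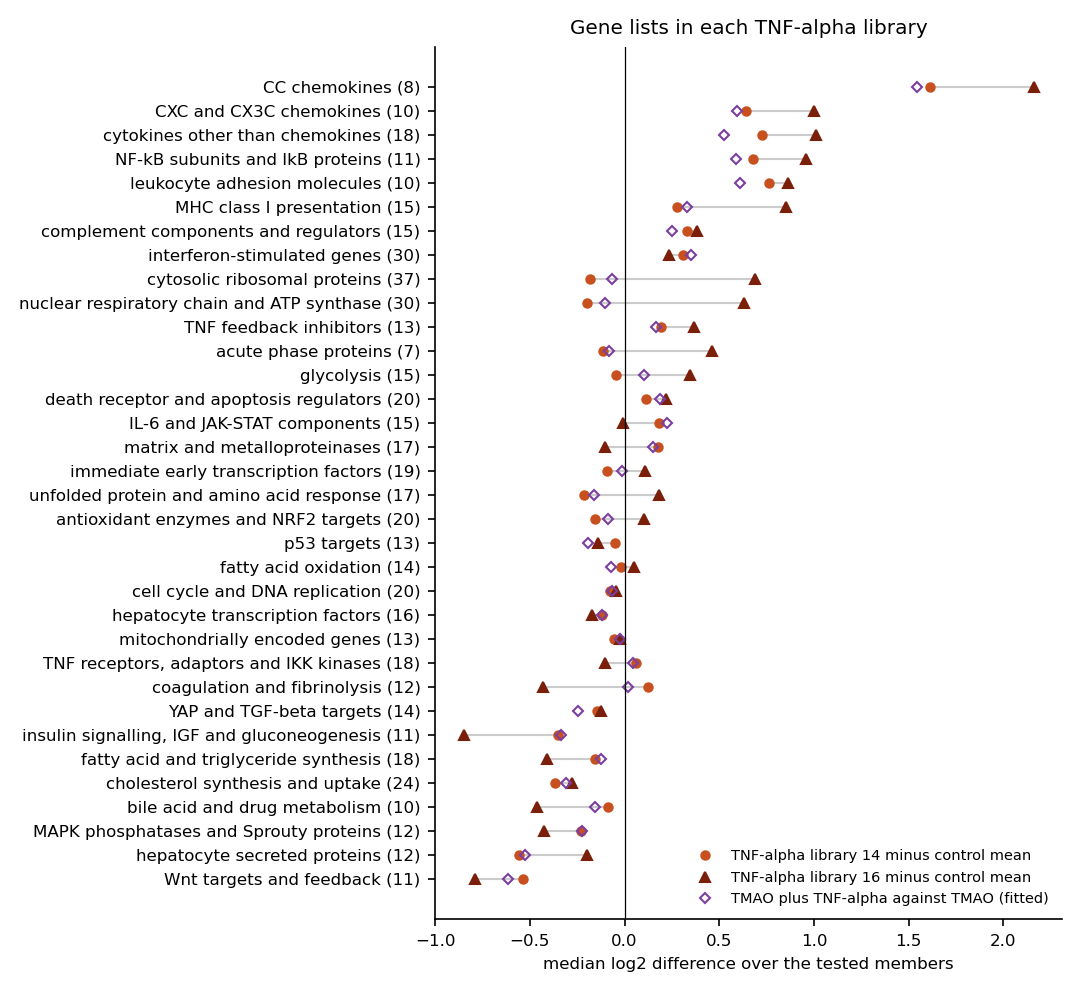
For each of 34 gene lists (tested members in parentheses) the median log2 difference from the control mean is drawn for TNF-α library 14 (circle) and library 16 (triangle), with the fitted median of TMAO plus TNF-α against TMAO (diamond). The CC chemokines lie furthest right, at 1.61 and 2.16; ribosomal and respiratory chain lists lie left of 0 in library 14 and right of it in library 16.

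Of 16 liver transcription factors Nr1h4 (the bile acid receptor FXR) and Nr5a2 (LRH-1) rose and Hnf4a, a master regulator of hepatocyte identity, fell. Hnf4a had 209 and 213 CPM in the control libraries and 144 and 112 CPM in the TNF-α libraries (log2 fold change -0.72 ± 0.13 SE, adjusted p = 0.0331). Nr5a2 had 31.9 and 31 CPM in the control libraries and 69.6 and 47.8 CPM in the TNF-α libraries (log2 fold change 0.90 ± 0.17 SE, adjusted p = 0.0384). Nr1h4 had 4.19 and 4.58 CPM in the control libraries and 8.67 and 9.43 CPM in the TNF-α libraries (log2 fold change 1.04 ± 0.17 SE, adjusted p = 0.0205). Foxa2 was lower in both TNF-α libraries without a call (adjusted p = 0.208). In drug and bile acid metabolism 2 of 10 fell. Cyp1a1, the main target of the aryl hydrocarbon receptor, lay at 116 and 116 CPM in the control libraries and 36.8 and 38.3 CPM in the TNF-α libraries (log2 fold change -1.63 ± 0.09 SE, adjusted p = 0.000648). Both pairs were tight. The export pump Abcc3 fell from 117 and 116 CPM to 72.9 and 62.5 CPM (log2 fold change -0.78 ± 0.11 SE, adjusted p = 0.0102).

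Cholesterol synthesis and uptake gave 2 falls and no rise in 24 tested genes, with medians of -0.37 in library 14 and -0.28 in library 16. Both TNF-α libraries were below both controls in 14 of the 24, as in 2733 of all 15613 tested genes. Sqle, squalene epoxidase, had 271 and 264 CPM in the control libraries and 164 and 176 CPM in the TNF-α libraries (log2 fold change -0.66 ± 0.10 SE, adjusted p = 0.0142). Dhcr7, of the last step of synthesis, fell by 0.50 on the log2 scale. Above the control mean lay 2 of the 24 in library 14 and 5 in library 16, against 7763 and 7922 of all 15613 tested genes. Scd1, which desaturates stearate, was the 1 call of 18 in fatty acid and triglyceride synthesis (252 and 276 CPM in the control libraries and 170.2 and 124 CPM in the TNF-α libraries). It had a log2 fold change of -0.84 ± 0.16 SE, adjusted p = 0.0355. Fasn, fatty acid synthase, had 679.7 and 734 CPM in the control libraries and 696 and 445 CPM in the TNF-α libraries, lower in library 16 only. Abcd2, a peroxisomal transporter of very long chain fatty acids, was the 1 call of 14 in fatty acid oxidation (10.3 and 13.1 CPM in the control libraries and 2.22 and 1.49 CPM in the TNF-α libraries), with a log2 fold change of -2.64 ± 0.23 SE, adjusted p = 0.0023. In both fatty acid lists, 1 call is near the 4.05% called over all tested genes and says nothing about the list as a whole. In the insulin and IGF list 2 of 11 fell. Igfbp1, a hepatic IGF-binding protein, went from 195 and 180.4 CPM to 56.5 and 80.6 CPM (log2 fold change -1.45 ± 0.17 SE, adjusted p = 0.00588). The insulin receptor substrate Irs2 went from 93.1 and 95.9 CPM to 47.2 and 30.1 CPM (log2 fold change -1.29 ± 0.20 SE, adjusted p = 0.0175). None of 15 glycolysis genes was called by edgeR, DESeq2 or limma-voom or had an unadjusted p under 0.05. Gapdh had 4307 and 4010 CPM in the control libraries and 3729 and 5044 CPM in the TNF-α libraries. Of the 11 calls in the liver factor and metabolism lists, 2 were made without control 14 or without control 16. Leaving out any 1 TMAO or combined library kept 3. The calls of the liver factors, of cholesterol synthesis and of Scd1 were lost without any 1 control, TMAO or combined library and with the block, and those of the insulin and IGF list without a control.

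Wnt targets and feedback genes had 4 falls and no rise in 11 tested, with medians of -0.53 in library 14 and -0.79 in library 16. Notum, a secreted deacylase that inactivates Wnt ligands, lay at 20.6 and 16 CPM in the control libraries and 2.02 and 2.98 CPM in the TNF-α libraries (log2 fold change -2.88 ± 0.22 SE, adjusted p = 0.00142). Rnf43, a ligase that removes Wnt receptors, lay at 101 and 106 CPM in the control libraries and 43.2 and 34.9 CPM in the TNF-α libraries (log2 fold change -1.40 ± 0.12 SE, adjusted p = 0.00228). Nkd1, an intracellular inhibitor, fell from 229 and 202 CPM to 93.4 and 111 CPM (log2 fold change -1.08 ± 0.13 SE, adjusted p = 0.00747). The R-spondin receptor Lgr5 fell from 115 and 127 CPM to 61.1 and 35.6 CPM (log2 fold change -1.32 ± 0.23 SE, adjusted p = 0.027). The groups did not overlap in these 4. Axin2, a widely used Wnt target, was lower in both TNF-α libraries (463 and 458 CPM in the control libraries and 371 and 266 CPM in the TNF-α libraries) without a call (adjusted p = 0.168). Of the 11 genes, 2 lay above the control mean in library 14 and 3 in library 16, against 7763 and 7922 of all 15613 tested genes.

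YAP and TGF-β targets gave 3 falls and 1 rise in 14 tested. Ccn2, a matricellular protein, lay at 121 and 108 CPM in the control libraries and 19.9 and 23.9 CPM in the TNF-α libraries (log2 fold change -2.39 ± 0.13 SE, adjusted p = 0.000558). Its relative Ccn1 fell from 141 and 134 CPM to 84.8 and 96.6 CPM (log2 fold change -0.60 ± 0.10 SE, adjusted p = 0.0252). Tgfbi, an adhesion protein of the matrix, fell from 12.6 and 13.8 CPM to 1.75 and 2.44 CPM (log2 fold change -2.67 ± 0.18 SE, adjusted p = 0.000904). Thbs1 had 1050 and 1263 CPM in the control libraries and 587 and 289.6 CPM in the TNF-α libraries, much lower in library 16 than in library 14, and was outside the threshold (adjusted p = 0.058). Ankrd1, another YAP target, was higher in both TNF-α libraries (285 and 279.5 CPM in the control libraries and 324 and 404 CPM in the TNF-α libraries) without a call.

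Early response transcription factors gave 2 rises and 3 falls in 19 tested. Klf4 lay at 58.7 and 51.3 CPM in the control libraries and 23.6 and 21.8 CPM in the TNF-α libraries (log2 fold change -1.28 ± 0.12 SE, adjusted p = 0.00276). The orphan receptor Nr4a1 fell by 0.79 and Fos by 1.60 on the log2 scale, while Ier3 (57 and 50.6 CPM without and 90.1 and 134 CPM with TNF-α) and the AP-1 subunit Fosl1 (89.7 and 83 CPM without and 122 and 152 CPM with TNF-α) rose. Among MAPK phosphatases and Sprouty proteins, which restrain ERK signalling, Dusp1 (44.4 and 41.7 CPM without and 29.4 and 28.2 CPM with TNF-α) and Spry4 (38.2 and 37.8 CPM without and 26.9 and 22 CPM with TNF-α) fell and none of the 12 rose. Of the matrix list, 3 of 17 rose, all metalloproteinases that degrade collagen and other matrix. Mmp13 lay at 65.5 and 65.2 CPM in the control libraries and 198 and 188 CPM in the TNF-α libraries (log2 fold change 1.56 ± 0.09 SE, adjusted p = 0.00066). Mmp9, a gelatinase, lay at 10.2 and 10.9 CPM in the control libraries and 33.5 and 28.8 CPM in the TNF-α libraries (log2 fold change 1.56 ± 0.13 SE, adjusted p = 0.00172). Mmp10, a stromelysin, lay at 5.91 and 5.14 CPM in the control libraries and 11.8 and 15.6 CPM in the TNF-α libraries (log2 fold change 1.31 ± 0.18 SE, adjusted p = 0.0107). Fibronectin (Fn1) had 6113 and 7231 CPM in the control libraries and 5974 and 2716 CPM in the TNF-α libraries, the lower level mainly in library 16, and was not called. Of the 18 calls in the Wnt, YAP, early factor, MAPK and matrix lists, 7 were made without control 14 or without control 16. Leaving out any 1 TMAO or combined library kept 9. The Dusp1 and Spry4 calls were lost without any 1 control, TMAO or combined library and with the block.

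After Cxcl15, the largest falls among called genes of at least 10 CPM were H2-Q1 and Notum. H2-Q1, a nonclassical class I gene of a multigene family whose reads may be shared, lay at 45.7 and 45.3 CPM in the control libraries and 4.73 and 4.88 CPM in the TNF-α libraries (log2 fold change -3.24 ± 0.13 SE, adjusted p = 0.000227). It fell while Tap2 and Tapbp rose. Nptx1, a neuronal pentraxin, went from 42.9 and 43.9 CPM to 8.67 and 7.24 CPM (log2 fold change -2.44 ± 0.12 SE, adjusted p = 0.000466). Atoh8, a basic helix-loop-helix factor, went from 27.1 and 24.3 CPM to 3.67 and 6.37 CPM (log2 fold change -2.37 ± 0.24 SE, adjusted p = 0.00376). Epb41l4b, of the band 4.1 protein family, went from 49.4 and 51 CPM to 13.4 and 11.2 CPM (log2 fold change -2.02 ± 0.13 SE, adjusted p = 0.000779). The rule that chose these 4 genes required both TNF-α libraries to lie below both controls. The TNF-α libraries were closest together in H2-Q1. The kinesin Kif26b (30.3 and 38.4 CPM in the control libraries and 7.58 and 3.8 CPM in the TNF-α libraries), the matrix glycoprotein Tnr (25.1 and 30.1 CPM in the control libraries and 9.2 and 3.85 CPM in the TNF-α libraries) and the transporter Abca8b (47 and 63.4 CPM in the control libraries and 18.6 and 8.64 CPM in the TNF-α libraries) fell by 2.58, 2.07 and 2.01 on the log2 scale, with library 16 below library 14 in each. Of the 12 largest falls, 10 were called without any 1 of the TMAO and combined libraries, and 9 without control 14 or control 16.

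Several lists had no call but differed between the TNF-α libraries. The 37 cytosolic ribosomal protein genes had medians of -0.18 in library 14 and 0.69 in library 16, and 1 of them was above the control mean in library 14 against 36 in library 16. Rplp0, of the large subunit, lay at 3093 and 2819 CPM in the control libraries and 2732 and 4368 CPM in the TNF-α libraries, and Rpl8 at 1548 and 1357 CPM in the control libraries and 1271 and 2323 CPM in the TNF-α libraries. The 30 nuclear genes of the respiratory chain and ATP synthase had medians of -0.20 in library 14 and 0.63 in library 16, none above the control mean in library 14 and 29 in library 16. Of all 15613 tested genes, 7763 lay above the control mean in library 14 and 7922 in library 16. The combined TMAO and TNF-α libraries stood at medians of -0.06 and -0.10 against TMAO for these lists. The 13 genes encoded by mitochondrial DNA, in contrast, had medians of -0.06 in library 14 and -0.03 in library 16. In these 3 lists edgeR, DESeq2 and limma-voom made no call, and no gene had an unadjusted p under 0.05. The 20 cell cycle genes gave the same zeros, Mki67 lying at 851 and 1024 CPM in the control libraries and 1091 and 532 CPM in the TNF-α libraries. Among 20 antioxidant genes edgeR called none, with 6 at an unadjusted p under 0.05 and 2 called by DESeq2. Among 17 genes of the unfolded protein response and 13 p53 targets, 2 each had an unadjusted p under 0.05 and none was called by the 3 tools.

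Single genes show how far the libraries were apart. Among genes of at least 10 CPM on average with TNF-α, the widest gap was in Rn7sk, a small nuclear RNA without a poly(A) tail, at 2.71 and 92.5 CPM in the TNF-α libraries and 1.25 and 0.655 CPM in the controls. It was likewise unequal in the combined group (95.3 and 0.567 CPM), and there library 14 was the high one. Next among genes higher in library 16 came Rpl19-ps11, a processed pseudogene whose reads may be shared with its parent gene. It lay at 7.71 and 5.69 CPM in the control libraries and 5.92 and 15.7 CPM in the TNF-α libraries. Of the protein-coding genes with the widest gaps in this direction, Fau encodes a ribosomal fusion protein. It had 384 and 309 CPM in the control libraries and 314 and 700.2 CPM in the TNF-α libraries. Atp5e had 47.8 and 37 CPM in the control libraries and 34.1 and 82.5 CPM in the TNF-α libraries. Ndufc1 had 14.7 and 12.7 CPM in the control libraries and 11.8 and 27 CPM in the TNF-α libraries. In each, library 14 was near the lower control and library 16 above both. In the other direction stood Zfp871, with 45.9 and 93.6 CPM in the control libraries and 95.6 and 6.7 CPM in the TNF-α libraries. The copper pump Atp7a had 21.2 and 33.6 CPM in the control libraries and 36.2 and 4.51 CPM in the TNF-α libraries. The Hippo kinase Lats1 had 21.9 and 33.8 CPM in the control libraries and 32.5 and 5.91 CPM in the TNF-α libraries. In these control library 16 was also above control library 14. None of these was called. In 359 tested genes the TNF-α libraries lay on opposite sides of both controls and at least 1.5-fold from the control mean each, 301 with library 16 the lower; of the 8935 genes of at least 10 CPM in the controls it was 18. Rnf213, a giant ubiquitin ligase, had 793 and 1177 CPM in the control libraries and 1475 and 402 CPM in the TNF-α libraries. Lcor, a corepressor, had 24.3 and 44 CPM in the control libraries and 50.2 and 8.15 CPM in the TNF-α libraries.

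The gap followed gene length. Protein-coding genes of at least 10 CPM were put in 5 classes of like size by merged exon length. From class to class the median of library 16 minus library 14 was 0.565 for the shortest (374 to 2802 bases), 0.21, -0.01, -0.24 and -0.605 for the longest (8118 bases and more). Against the control mean, library 16 went from 0.46 to -0.51 and library 14 from -0.12 to 0.07. Control 16 minus control 14 went from -0.15 to 0.15, the opposite slope. TMAO plus TNF-α against TMAO stayed between -0.06 and -0.01. What produced the slope was not tested. When each library's trend with length was taken out in the same fit, an alternative added after the data were seen, 965 genes were called, 606 of them among the 633, and the TNF-α libraries still differed by over 1.5-fold in 2543 of the 12368 genes (20.56%). The ribosomal and respiratory lists still had no call.

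**Figure D4:**
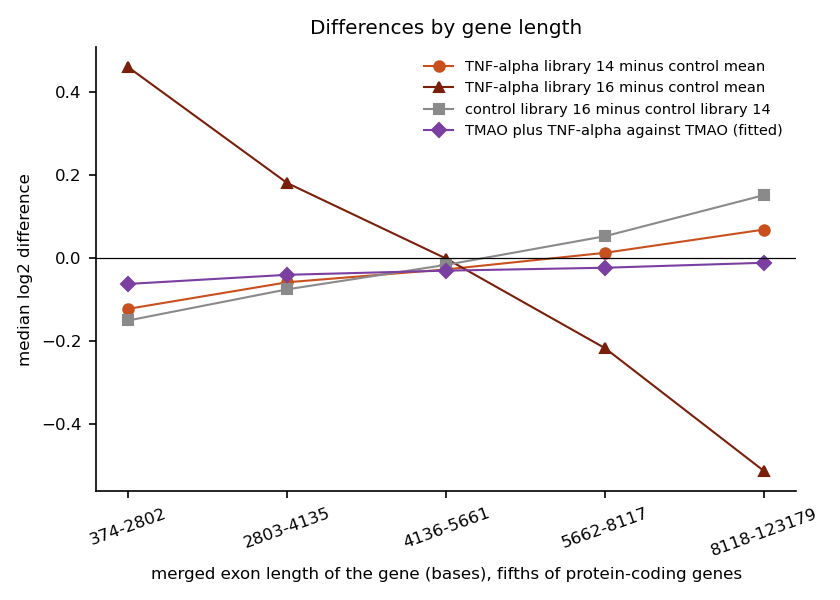
Median log2 differences are plotted for 5 classes of protein-coding genes of at least 10 CPM, from the shortest to the longest merged exon length in bases. TNF-α library 16 falls from 0.46 to -0.51 against the control mean, while library 14, the difference between the controls and the comparison in TMAO stay between -0.15 and 0.15.

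The libraries that had TMAO in both groups gave a second TNF-α comparison from 4 other libraries. Of the 15613 genes 569 were called (3.64%), 337 higher (2.16%) and 232 lower (1.49%). Shared in the same direction were 466 genes, 73.6% of the 633 called without TMAO and 81.9% of the 569, and none was called in opposite directions. All libraries share the estimate of spread, so the tests are not fully separate. Of the 633, 632 had the same sign with TMAO, as did 64.3% of all tested genes. Pglyrp2 had log2 fold changes of 4.88 without and 5.12 with TMAO. In the same order Vcam1 had values of 2.12 and 2.20, Ccl2 of 2.66 and 2.48, Cxcl15 of -3.31 and -3.17, and Alb of -1.58 and -1.62. Several chemokine genes were called without TMAO and not with it: Cxcl1, Cxcl2 and Cxcl3 had log2 fold changes of 0.54, 0.71 and 0.65 with TMAO (adjusted p = 0.0691, 0.0776 and 0.106). Whether the TNF-α effect differed with TMAO was not tested here. Without TMAO 14 the 569 calls became 71, without TMAO 16 77, without combined 14 105 and without combined 16 102. Left out alone, control 14 gave 301 calls, control 16 302, TNF-α 14 2608 and TNF-α 16 2628.

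**Figure D5:**
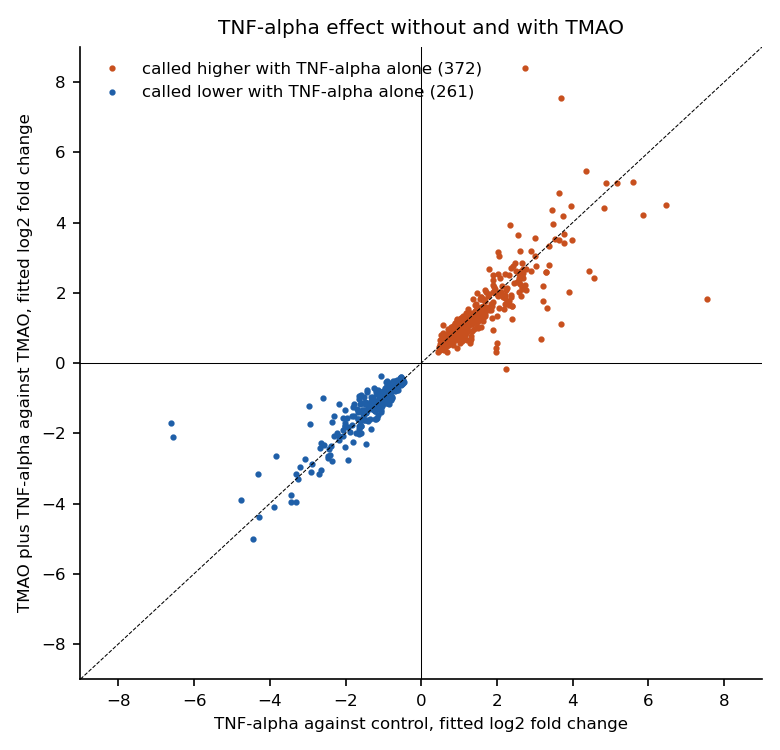
Fitted log2 fold changes of the 633 genes called with TNF-α alone (x axis) are plotted against those of TMAO plus TNF-α over TMAO (y axis), with orange for 372 called higher, blue for 261 called lower and a dashed line of equal change. All but 1 gene lie on the same side of 0 in both.

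Markers of 6 other cell types were summed in each library. Of 10 macrophage markers, Marco and Vsig4 had no count in any library and Clec4f none in the control and TNF-α libraries, Cd68 and Csf1r made up most of the rest, and the summed level was 17.7 and 15.9 CPM of total counts without and 15.1 and 16.8 with TNF-α. The sum hides opposite changes. Csf1r had 7.776 and 6.939 CPM without and 3.625 and 3.557 with TNF-α. Cd68 had 9.089 and 8.313 CPM without and 10.81 and 12.77 with TNF-α. Endothelial markers (7) summed to 0.875 and 1.30 CPM without and 1.44 and 1.33 with TNF-α. Stellate and fibroblast markers (8) summed to 2.15 and 2.92 against 2.72 and 1.98. T and B cell markers (9) summed to 1.15 and 0.996 against 1.21 and 1.42. Erythroid markers (5) summed to at most 0.344. Lyve1, Col3a1, Cd3d and Cd3e were at 0. Cholangiocyte markers (6), Spp1, Sox9 and Epcam among them, summed to 292 and 275 CPM without and 204 and 236 with TNF-α. The 8 hepatocyte and hepatoma markers, Alb and Afp among them, summed to 3294 and 3244 CPM without and 1426 and 1474 with TNF-α.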

How the data were processed

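Messenger RNA of Hepa1-6 cells was selected with oligo-dT beads, fragmented and sequenced as paired reads of 150 bases, per the labels' protocols. The genome build was mm9, per the submitters' processing notes. Aligner, annotation release and strand mode were each not given in the sources used here. Whole-number counts per Ensembl gene, in a table whose name gives htseq as the counter, were deposited by the authors, as were TPM values per gene symbol, whose program is likewise unnamed. Neither table pools libraries. Antisense and overlapping genes cannot be told apart without the strand setting.

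Counts of genes kept by filterByExpr (15613 of 54446) were scaled by TMM and fitted with edgeR 4.0.16 in R 4.3.3 (glmQLFit, robust, 4 group means, 8 libraries, 4 residual degrees of freedom), with Benjamini-Hochberg adjustment at 0.05. CPM values use these scaled totals. Values of single libraries on the log2 scale use a prior count of 2 and are given minus the control mean. Gene symbols and lengths came from GENCODE M21, which matched 54409 identifiers. The fit was tested on counts simulated with the same spread in every library. That test does not cover the wider spread between the TNF-α libraries. A log2 fold change had a 95% interval of ± 0.41 in the median of the 8990 genes above 10 CPM on average. Totals of 24736746 to 30488605 counts put 3 counts at 0.0984 to 0.121 CPM; floors cover counting error only.

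Members and gene lists were chosen with earlier results of these data known. Named genes are the 12 largest and 12 smallest log2 fold changes among called genes of at least 10 CPM in a group whose libraries do not overlap; from each list up to 8 called members and up to 3 uncalled ones of highest level; the 10 widest gaps each way between the TNF-α libraries; the 6 widest on opposite sides of the controls; and up to 4 promoters. Some are summarised by counts or not reported here, and genes below the filter were named after their values were seen. Alternatives were DESeq2 1.42.0, limma 3.58.1 (voom, with and without library quality weights), other scalings and filters, a replicate block, each library left out, and limma on log2(TPM + 1).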

Additional observations from a re-analysis of the deposited data

How the results depend on the processing

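The 633 calls of TNF-α against control stayed within 1.5 times under DESeq2, limma-voom, scaling by RLE or by total counts and a minimum of 1 CPM in 2 libraries (633 to 872). They became 954 without a filter, 199 with library quality weights, 241 with limma on log2(TPM + 1) of the deposited TPM, and 1 with only the 4 libraries compared. With 1 library left out they ran from 92 (control 14) to 7971 (TNF-α 14). The 569 calls with TMAO became 898 without a filter, 3875 with quality weights, and 71 (TMAO 14) to 2628 (TNF-α 16) with 1 library left out. A replicate block over the library numbers gave 342 calls (323 with TMAO) in 8 libraries and 258 in 4. Whether the numbers pair the libraries cannot be decided here, as the labels do not say. Across genes the differences of library 16 minus 14 correlated at -0.636 between control and TNF-α. For the other pairs of groups the correlations lay between -0.083 and 0.005. The crossed pairing, added after seeing the data, gave 946 calls. Also added after seeing the data, leaving out TNF-α 16 and control 14 together gave 3273 (4832 with TMAO), and removing the trend with gene length gave 965 (946 with TMAO). The 4051 genes over 1.5-fold apart between the TNF-α libraries became 1190 at over 2-fold and 2543 with the length trend removed. No called gene named changed direction in any of these settings in which it was tested (104 of 106 with the deposited TPM, all 106 in the others). Both TNF-α libraries lay beyond both controls in every called gene, so these settings could hardly reverse a direction. The unchanged directions therefore add little. Of the 106, 66 were called with quality weights, 71 with the 8-library replicate block and 37 without control 14; the cause was not tested.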
